A study of Homo sapiens with 6 samples.

Results

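The MYC, MAX and MXD network was examined as 10 genes, the MYC paralogs MYC, MYCN and MYCL, their shared partner MAX, and the repressor partners of MAX, which are MXD1, MXI1, MXD3, MXD4, MNT and MGA. They were chosen by name, as the rows of the 6 count tables whose Ensembl identifiers carry these symbols in GENCODE 29, out of 58735 genes in the tables. All 10 passed the filter on low counts and are among the 17520 genes tested. The cells were Jurkat, an established human T cell leukaemia line, infected with a lentiviral vector. One group (shCtrl, genotype control) received a control short hairpin RNA, and the other (shSATB1, genotype SATB1 knockdown) a hairpin against SATB1, a chromatin organiser of the T lineage. There were 3 libraries in each group. Both groups carry a vector, 1 hairpin is labelled per group, and nothing states that the replicates were separate infections, so the spread that p-values rest on may be technical.

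The proteins of this network bind DNA as pairs. Each MYC paralog pairs with MAX, binds the E-box sequence CACGTG and related sites, and favours transcription of genes for ribosome production, metabolism and cell division. The MXD proteins, MXI1 and MNT pair with the same MAX and bind the same sites, but recruit the SIN3 corepressor with its histone deacetylases, and MGA pairs with MAX within a Polycomb-type repressor complex. MYC is a central oncogene of T cell leukaemia, where NOTCH1 and a set of T lineage factors act on its distant enhancers.

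SATB1 itself gave 279.1, 258.5 and 259.3 CPM (a gene's reads scaled to a common library size) for shCtrl 1, 2 and 3, against 101.8, 100.2 and 104.1 for shSATB1 1, 2 and 3. The knocked-down gene thus went with the labels in every library. Libraries held 26626539 to 28913623 reads in genes. All 9 T cell markers examined were above 1 CPM, with a summed level of 2569 to 2910 CPM in shCtrl and 2491 to 2646 CPM in shSATB1. Markers of myeloid, erythroid and epithelial cells summed to at most 2.37 CPM in any library, and of 5 B cell markers only CD79A was above 1 CPM. In bulk RNA, fewer cells that express a gene and less RNA per cell cannot be told apart. Reads outside every annotated exon made up 10.2%, 7.77% and 9.36% of shCtrl 1, 2 and 3, against 11.7%, 10.9% and 11.6% of shSATB1 1, 2 and 3. This no-exon share was higher in every shSATB1 library, and results that change when it enters the fit as a covariate are marked below.

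Of the 10 members, MYC and MXI1 fell, MXD4 rose and 7 did not pass the test. MYC lost the most, 1.62-fold, and MXD4 gained 1.33-fold. In all, 3 of 10 members were called, where 30.9% of all genes tested were. Thus 1 of 10 members rose, where 14.3% of all genes tested did, and 2 fell, where 16.6% did. The members' median log2 fold change was 0.012 and that of all genes tested 0.0091. The libraries of the groups did not overlap in 4 members (MYC, MYCN, MXI1 and MXD4), against 45.1% of all genes tested. All but 1 member had a mean of at least 10 CPM. Of the 9771 genes at that level 17.7% rose, 25.9% fell and 5611 did not overlap. Without shCtrl replicate 1, 2 members rose and 4 fell, as MGA rose and MAX and MXD3 fell. Calls over all genes also grew in that setting, to 3218 rises and 3562 falls of 17999, from 2500 and 2910 of 17520. By counts alone the members were therefore near the background, and the description that follows is of single genes.

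**Figure D1:**
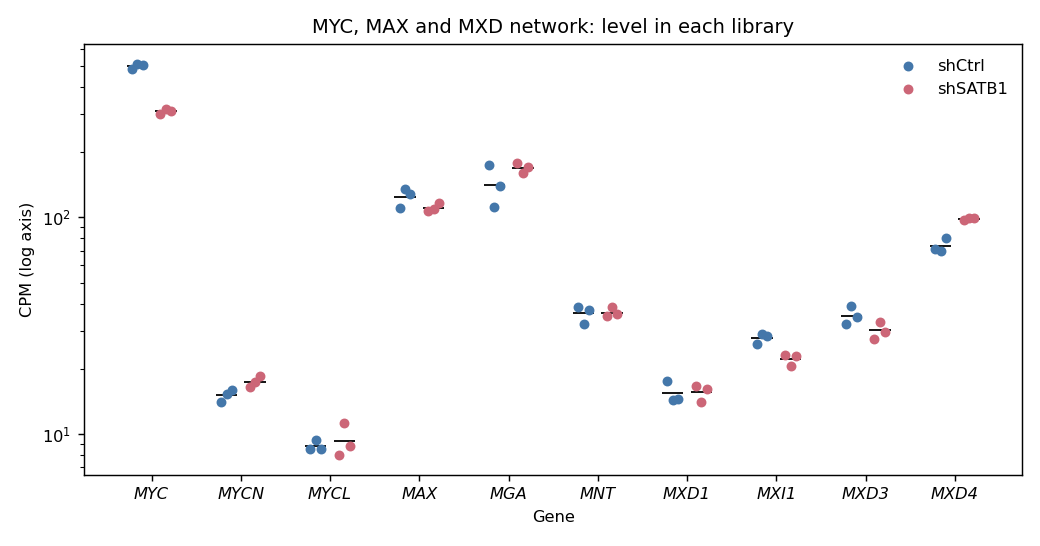
CPM of each of the 10 network members (log axis) in the 3 shCtrl libraries (blue) and the 3 shSATB1 libraries (red); each point is a library and each black line a group mean. MYC in shSATB1, at 298.9 to 317.9 CPM, lies below all shCtrl libraries, and MXD4, at 96.8 to 99.7 CPM, lies above them.

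MYC (ENSG00000136997, chromosome 8, 127735434 to 127741434, plus strand, hg38) encodes the activating partner of MAX that most proliferating blood cells use. Libraries shCtrl 1, 2 and 3 held 486.1, 513.7 and 505.4 CPM, against 298.9, 317.9 and 310.4 CPM for shSATB1 1, 2 and 3. The highest shSATB1 library lay far below the lowest shCtrl library. On the log2 scale the fold change was -0.70 (SE 0.0598, adjusted p = 3.23e-06 by edgeR). MYC was thus at 61.6% of control (95% interval 56.4% to 67.3%). By exact permutation (two-sided) of the 6 CPM values p was 0.1, which is as low as this design can go. MYC passed the threshold under all 16 other settings, with log2 fold changes from -0.73 to -0.61. None of its exon bases is shared with another annotated gene.

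The other MYC paralogs were present at low levels and did not pass the test. MYCN (chromosome 2, 15940564 to 15947007), known as the MYC paralog of neural tumours, measured 14.1, 15.3 and 15.9 in the shCtrl libraries, against 16.4, 17.4 and 18.4 CPM under shSATB1. Every shSATB1 library was above every shCtrl library, with a log2 fold change of 0.21 (SE 0.0887, edgeR adjusted p = 0.0913). After correcting for length and GC the adjusted p from edgeR was 0.0145. MYCL (chromosome 1, 39895426 to 39902256) lay between 8.53 and 9.42 CPM in shCtrl and between 7.97 and 11.2 CPM in shSATB1. These ranges overlapped, and the 95% interval of its log2 fold change ran from -0.20 to 0.35. MYCN shares 3.77% of its exon bases with the antisense gene MYCNOS, which was at 1.46 ± 0.0953 CPM under shCtrl and 1.45 ± 0.194 CPM under shSATB1 (SD, n = 3). Changes in MYC and MYCN thus had opposite signs, but the MYCN difference did not pass the test.

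MAX (chromosome 14, 65006174 to 65102695, minus strand) encodes the partner that every other member can bind. It measured 110.4, 135.3 and 128.4 in the shCtrl libraries, against 106.6, 109.3 and 116.9 CPM under shSATB1. shCtrl 1 lay among the shSATB1 libraries, so the groups overlapped. The log2 fold change was -0.17 (SE 0.0765, edgeR adjusted p = 0.111, 95% interval -0.33 to -0.0045). Without shCtrl replicate 1 it was -0.26 and passed (edgeR adjusted p = 0.00345), and with the covariate the sign turned (0.058), so whether MAX is called depends on shCtrl 1.

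**Figure D2:**
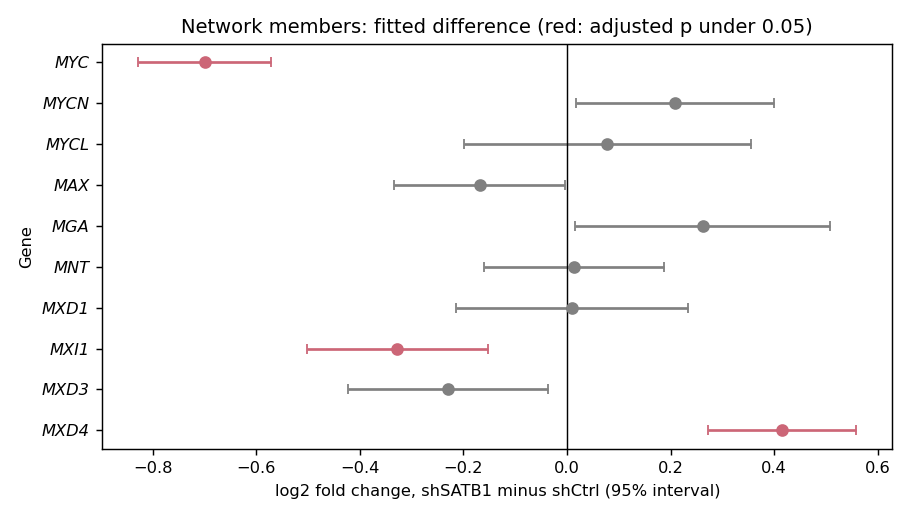
Fitted log2 fold change of shSATB1 minus shCtrl for each network member, with its 95% interval (edgeR, 3 libraries a group); red marks an adjusted p under 0.05. MYC (-0.70) and MXI1 (-0.33) lie to the left of 0 and MXD4 (0.42) to the right, and the intervals of MYCL, MNT and MXD1 include 0.

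The E-box was looked for in promoter windows of 300 bases, 250 before and 50 after the start (RefSeq, GRCh38.p14). The motif searched was CACGTG, which reads the same on both strands, and 7.26% of 35116 windows hold it. A gene can have several windows, and by gene 8.77% of 27305 with a window hold it, and 12.5% of 10892 tested genes with one. Windows were found for 9 of the 10 members, all but MYC, which was therefore not searched. It is in the windows of 2 of these members (22.2%), MXD4 and MNT. For each of these, 30 bases are shown 5′ to 3′ on the gene's strand, with the motif in capitals:
MXD4 (chr4:2262330-2262359, minus strand, motif starting 238 bases before the start): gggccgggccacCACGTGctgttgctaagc
MNT (chr17:2401236-2401265, minus strand, 193 bases before): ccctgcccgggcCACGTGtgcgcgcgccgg

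MXD4 (ENSG00000123933, chromosome 4, 2247432 to 2262294, minus strand) encodes a MAX partner that carries SIN3 to E-boxes and is known from resting and differentiating cells. It measured 71.2, 70.2 and 80.4 in the shCtrl libraries, against 96.8, 99.2 and 99.7 CPM under shSATB1. All shSATB1 libraries were above all shCtrl libraries and close to each other. The log2 fold change was 0.42 (SE 0.0666, edgeR adjusted p = 0.000471), or 133.4% of control with a 95% interval from 120.8% to 147.3%. The call held under 15 of 16 other settings, and ended when a change past 1.2-fold was asked for, here called the 1.2-fold null (edgeR adjusted p = 0.0546).

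MXI1 (ENSG00000119950, chromosome 10, 110207605 to 110287365, plus strand), also called MXD2, encodes another SIN3-recruiting partner and moved the other way. It measured 25.9, 28.99 and 28.4 in the shCtrl libraries, against 23.0, 20.5 and 22.9 CPM under shSATB1. The groups did not overlap, though shCtrl 1 and shSATB1 1 were close. The log2 fold change was -0.33 (SE 0.0814, edgeR adjusted p = 0.00783), which left 79.7% of control (95% interval 70.6% to 90.0%). The call ended with the covariate (log2 fold change -0.25, edgeR adjusted p = 0.238) and against the 1.2-fold null (edgeR adjusted p = 0.356).

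MXD3, a member linked to S phase and proliferating cells, measured 32.1, 39.0 and 34.6 in the shCtrl libraries, against 27.5, 33.0 and 29.6 CPM under shSATB1. The groups overlapped, and the log2 fold change of -0.23 (SE 0.0899) did not pass (edgeR adjusted p = 0.0683). It passed without shCtrl replicate 1 (-0.30, edgeR adjusted p = 0.00705), with no filter, with the replicate block (edgeR adjusted p = 0.0206) and with the length and GC correction, and turned to 0.082 with the covariate. MXD3 (chromosome 5, 177301461 to 177312757, minus strand) shares 40.4% of its exon bases with its neighbours RAB24 and PRELID1, more than any other member. Reads on shared bases may have been set aside as ambiguous or counted for a neighbour, and PRELID1, on the opposite strand, fell in the same comparison (log2 fold change -0.29, edgeR adjusted p = 0.00978), a call lost with the covariate (adjusted p = 0.595) or without shSATB1 replicate 1 (0.0833). The part of these reads in the MXD3 values was not tested.

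MXD1 and MNT did not pass the test. MXD1, the founding MXD gene, lay between 14.4 and 17.6 CPM in shCtrl and between 14.04 and 16.7 CPM in shSATB1. MNT, the most widely expressed MYC antagonist, lay between 32.2 and 38.5 CPM in shCtrl and between 35.0 and 38.4 CPM in shSATB1. In both genes the ranges overlapped almost fully. The 95% intervals ran from 86.2% to 117.6% of control for MXD1 and from 89.5% to 113.9% for MNT. SNRNP27, which shares 3.73% of the exon bases of MXD1, fell (log2 fold change -0.56, edgeR adjusted p = 0.000517), a call lost with the covariate (adjusted p = 0.202).

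MGA (chromosome 15, 41621224 to 41773081, plus strand) encodes a very large MAX partner with a second DNA-binding domain of the T-box type. It measured 173.8, 112.3 and 139.4 in the shCtrl libraries, against 178.2, 160.1 and 171.8 CPM under shSATB1. The shCtrl libraries spread widely, and shCtrl 1 lay within the shSATB1 range. Across shCtrl the order of MGA was the order of the no-exon share of reads (10.2%, 7.77% and 9.36%). MNT and MXD1 had the same order, and MYC, MAX, MXD3 and MXI1 the reverse. The log2 fold change was 0.26 (SE 0.115, edgeR adjusted p = 0.101). It was 0.43 without shCtrl replicate 1 (edgeR adjusted p = 3.00e-05), 0.28 with the replicate block (adjusted p = 0.0101), -0.29 with the covariate (adjusted p = 0.0130) and 0.011 with the length and GC correction (adjusted p = 0.927). MGA has the longest exon sequence of the members, 17651 bases. The direction for this gene therefore depends on the setting.

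**Figure D3:**
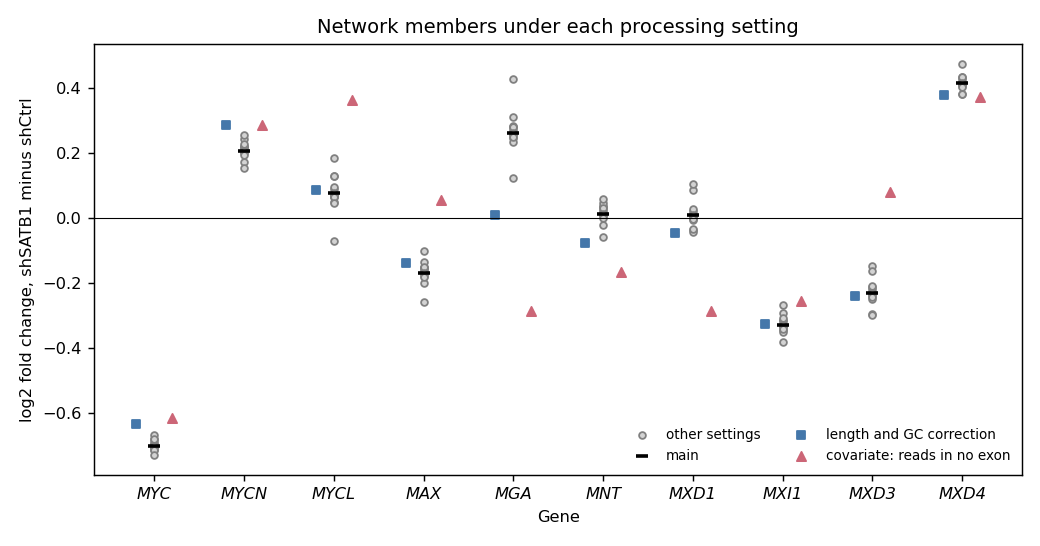
Log2 fold change of shSATB1 minus shCtrl for each network member as reported in the text (black bar), under the other settings (grey), after correcting for length and GC (blue squares) and with the no-exon share as covariate (red triangles). MYC, MYCN, MXI1 and MXD4 keep their sign throughout, while MGA ranges from -0.29 to 0.43.

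Levels were compared between members per length, as CPM per kb of the union of annotated exons. On this scale MYC was first in both groups, at 167.2 ± 4.72 with the control hairpin, then 103.0 ± 3.20 with shSATB1 (SD, n = 3, as for all such values). MAX followed at 28.2 ± 2.91 and 25.0 ± 1.21, then MXD4 at 10.5 ± 0.796 and 13.97 ± 0.222. In both groups each of these 3 genes lay above the next in every library. MGA (8.04 ± 1.75, then 9.63 ± 0.520 under shSATB1, CPM per kb) came next. In shCtrl MXD3 (6.83 ± 0.669), MXI1 (6.03 ± 0.352) and MYCN (5.79 ± 0.355) followed, and each of these overlapped the gene next to it in the order, as MXD3 did MGA. MGA lay above MXI1 and MYCN in every shCtrl library, and MXD3 above MYCN. In shSATB1 the order below MGA was MYCN (6.69 ± 0.390), MXD3 (5.83 ± 0.539) and MXI1 (4.81 ± 0.304), with MYCN and MXD3 overlapping. MNT (4.12 ± 0.384 and 4.16 ± 0.210), MXD1 (2.44 ± 0.291 and 2.46 ± 0.217) and MYCL (1.74 ± 0.101 and 1.84 ± 0.335) were lowest in both groups. MXD1 and MYCL overlapped in shSATB1.

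MYC made up most of the summed transcript level of the 9 MAX partners per kb. Its share was 77.9%, 79.6% and 78.4% for shCtrl 1, 2 and 3, against 67.2%, 68.2% and 67.4% for shSATB1 1, 2 and 3. Every shSATB1 library was below every shCtrl library. The share of MXD4 went from 4.92% ± 0.344 to 9.17% ± 0.110. This share also grows as MYC in the sum falls, and MXD4 itself went from 10.5 to 13.97 CPM per kb. MYC per unit of the 6 repressor partners together went from 4.41 ± 0.298 to 2.52 ± 0.0840. MYC per MAX was 5.97 ± 0.470 and 4.12 ± 0.188. These are ratios of transcript levels and say nothing of protein, and no test was made of them because they are built from the members. With the longest annotated transcript as length, the MYC share was 75.4% and 63.7%.

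**Figure D4:**
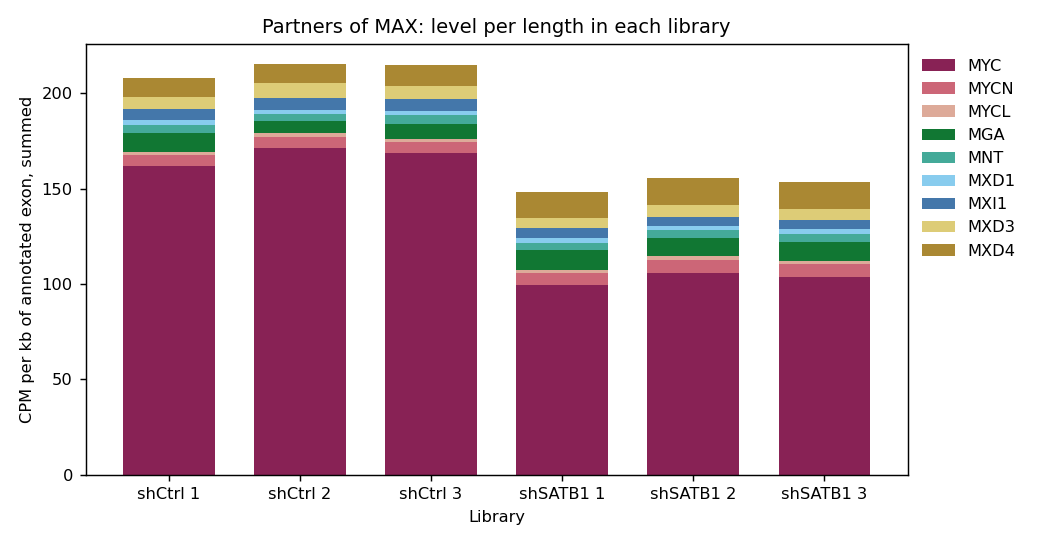
Level per length (CPM per kb of annotated exon, stacked from 0) of the 9 MAX partners in each library. The MYC segment shrinks from 162.0 to 171.2 CPM per kb in shCtrl to 99.6 to 105.9 in shSATB1, and the MXD4 segment at the top is thicker in shSATB1.

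Apart from MYC and CCDC26, genes in the region around MYC were low or silent. Of 25 genes annotated within 1 Mb of it, 12 had no read in any library and 3 passed the filter. PVT1, the noncoding RNA gene next to MYC (chromosome 8, 127794533 to 128101253), measured 2.55, 4.29 and 3.95 in the shCtrl libraries, against 3.02, 2.29 and 2.34 CPM under shSATB1. These overlapped, with a log2 fold change of -0.49 (SE 0.208) that did not pass (edgeR adjusted p = 0.0879). It passed without shCtrl replicate 1 (edgeR adjusted p = 0.00351). CCDC26, a long noncoding RNA gene (chromosome 8, 128634199 to 129683679, minus strand), measured 31.4, 35.1 and 31.5 in the shCtrl libraries, against 23.5, 21.2 and 22.5 CPM under shSATB1. It fell with a log2 fold change of -0.54 (SE 0.0793, edgeR adjusted p = 0.000230), and all 16 other settings kept the call. LINC00824 was under 1 CPM in both groups and did not pass (edgeR adjusted p = 0.495). Each untested gene of the region had at most 6 reads in any library.

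Among 9770 other genes with a mean of at least 10 CPM, the 3 whose pattern over the 6 libraries was most like that of MYC were TKT, CDC45 and CD1B. Likeness was the root mean squared difference of log2 CPM centred on each gene's mean, 0.0251, 0.0278 and 0.0297. TKT encodes transketolase of the pentose phosphate pathway, CDC45 a helicase factor of DNA replication and CD1B a lipid-presenting molecule of thymocytes. No network member compared was near: the nearest, MXI1, differed by 0.203 and ranked 1330 in likeness. MYCL, with a mean under 10 CPM, was not compared. TKT, the first, went from 708.4 ± 25.0 to 450.1 ± 16.4 CPM.

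Genes widely reported as activated by MYC were examined as a list of 62 genes of nucleolar, mitochondrial, nucleotide and cell cycle function. The list was chosen with earlier results of these data known, so its share is a description only. Of 61 tested, 50 fell, 11 did not pass and 0 rose in edgeR. The share that fell was 82.0%, against 16.6% of all genes tested and 25.9% of those with a mean of at least 10 CPM. The list's median log2 fold change was -0.33, with 0.0091 over all genes tested and -0.036 over those of at least 10 CPM. At an unadjusted p under 0.05 no member was higher, and DESeq2 and limma-voom also gave 0 rises. UTP20 rose without shCtrl replicate 1 (log2 fold change 0.25, edgeR adjusted p = 0.00707). With the covariate 20 of the list fell, where 1262 of all 17520 genes tested did. Against the 1.2-fold null 17 of the list fell, where 698 of 17520 did. With the length and GC correction 51 of the list fell, where 3616 of 17511 genes did, and the list's median was -0.32. The libraries did not overlap for 52 of the 61, against 45.1% of all genes tested and 5611 of the 9771 with at least 10 CPM.

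The largest falls in the list were of NPM1, PA2G4, SORD and TERT. NPM1, the nucleolar protein nucleophosmin, measured 1160, 1505 and 1252 in the shCtrl libraries, against 811.0, 791.2 and 823.0 CPM under shSATB1 (log2 fold change -0.69, SE 0.0840). PA2G4, a growth-related RNA-binding protein, fell from 169.7 ± 19.1 to 105.5 ± 4.10 CPM. The shCtrl libraries varied more than the shSATB1 libraries in both. SORD, sorbitol dehydrogenase, fell from 101.7 ± 0.798 to 64.4 ± 3.57 CPM. TERT, the catalytic subunit of telomerase, measured 44.2, 37.9 and 42.4 in the shCtrl libraries, against 27.2, 27.2 and 26.1 CPM under shSATB1. These 4 calls had adjusted p between 7.82e-06 (SORD) and 5.95e-05 (NPM1 and TERT, edgeR) and held under all 16 other settings. NPM1 and PA2G4 have processed pseudogene copies in the genome, and how reads shared with such copies were counted is not given, so their levels are uncertain. TFRC, the transferrin receptor, chosen after its values were seen, was at 529.4 ± 17.4 and 519.2 ± 17.1 CPM, with a log2 fold change of -0.028 (edgeR adjusted p = 0.760). With the length and GC correction it passed as lower (-0.13, edgeR adjusted p = 0.0440).

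**Figure D5:**
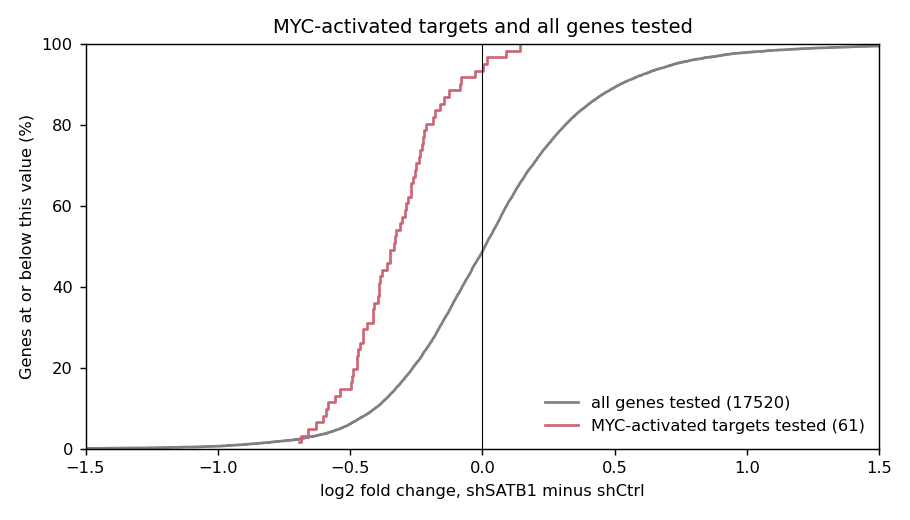
Share of genes (%) at or below each log2 fold change of shSATB1 minus shCtrl, for the 61 tested MYC-activated targets (red) and for all 17520 genes tested (grey); the ends of the grey curve lie outside the axis. The red curve lies to the left, with its median at -0.33, and its highest gene is UTP20 at 0.14.

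Of the target list, 30 of 51 genes with a promoter window held CACGTG (58.8%), against 12.5% of 10892 tested genes with a window. The sites of ODC1, LDHA and CDK4, chosen after their values were seen, are shown as for the members, since each of these windows holds more than 1 site (1 of 2 is shown for ODC1, and all for LDHA and CDK4):
ODC1 (chr2:10448024-10448053, minus strand, 29 bases before the start): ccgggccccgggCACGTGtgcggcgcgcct
LDHA (chr11:18394366-18394395, plus strand, 185 bases before): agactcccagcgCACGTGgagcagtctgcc
LDHA (chr11:18394464-18394493, plus strand, 87 bases before): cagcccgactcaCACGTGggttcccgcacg
CDK4 (chr12:57752509-57752538, minus strand, 216 bases before): atgtcaagcggtCACGTGtgatagcaacag
CDK4 (chr12:57752489-57752518, minus strand, 196 bases before): atagcaacagatCACGTGgctgccatcgcc
CDK4 (chr12:57752394-57752423, minus strand, 101 bases before): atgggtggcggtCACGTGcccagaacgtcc

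ODC1, the first enzyme of polyamine synthesis, fell from 246.1 ± 24.5 to 187.7 ± 2.42 CPM, a call lost with the covariate (edgeR adjusted p = 0.152). LDHA, lactate dehydrogenase A, fell from 935.2 ± 72.2 to 673.6 ± 15.4 CPM. CDK4, the kinase that cyclin D activates, fell from 115.7 ± 2.72 to 83.2 ± 5.60 CPM. Among tested targets with a window, 25 of 29 with the motif and 17 of 21 without it fell. Outside the list, at a mean of at least 10 CPM, 28.7% of 1011 genes with the motif fell and 25.4% of 6681 without it. A match describes the sequence only and does not show binding.

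Genes reported as repressed by MYC moved in both directions. Of 16 tested of 18, 6 rose (37.5%, against 14.3% of all genes tested) and 3 fell (18.8%, against 16.6%). The median log2 fold change was 0.14. RHOB, a small GTPase gene, rose from 2.05 ± 0.349 to 3.35 ± 0.852 CPM, a call lost without shSATB1 replicate 3 (edgeR adjusted p = 0.137), without shCtrl replicate 3 (0.0764) or with the covariate (0.0508). With the covariate its log2 fold change was larger, 1.04 against 0.71, and its SE wider, 0.364 against 0.213. BTG2, an antiproliferative gene, rose from 29.6 ± 2.34 to 40.5 ± 0.557 CPM. Without shCtrl replicate 3 or shSATB1 replicate 3 2 rose, while rises over all genes went from 2500 to 1662 and 1650. CCNG2, FOXO3, BTG1 and TXNIP (also in the MLX arm) rose too, chosen after their values were seen. FOXO3 lost its call without shCtrl 3, shSATB1 1 or shSATB1 3 (edgeR adjusted p 0.0553 to 0.0772) and turned with the covariate (-0.012). BTG1 overlapped between groups and lost its call without shCtrl 1 or 3 or shSATB1 2 or 3 (0.0718 to 0.155). CCNG2 kept its call under 15 of 16 other settings and TXNIP under 8. GADD45B, a stress response gene, fell from 8.41 ± 0.705 to 5.90 ± 0.151 CPM (edgeR adjusted p = 0.00412, and 0.404 with the covariate). CDKN2C, an inhibitor of CDK4 and CDK6, fell from 91.7 ± 7.94 to 67.1 ± 2.39 CPM (adjusted p = 0.000423, and 0.0622 with the covariate). PDCD4 was the third fall and was lost without 5 of the 6 libraries in turn, shCtrl 2, shCtrl 3 and shSATB1 1, 2 and 3 (adjusted p 0.0558 to 0.139).

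MLX is a MAX-like protein that also pairs with MXD1, MXD4 and MNT, and with the glucose-sensing factors MLXIP (MondoA) and MLXIPL, whose best known targets are TXNIP and ARRDC4. Of 5 genes in this arm, 4 were tested, 2 rose and 1 fell, where 14.3% and 16.6% of all genes tested did. ARRDC4, an arrestin-like gene, measured 4.88, 6.07 and 4.28 in the shCtrl libraries, against 7.72, 9.24 and 9.76 CPM under shSATB1. It rose with a log2 fold change of 0.81 (SE 0.144, edgeR adjusted p = 0.000939) and kept the call under all 16 other settings. TXNIP, an inhibitor of glucose uptake, also rose (log2 fold change 0.89, SE 0.310, edgeR adjusted p = 0.0427). It was chosen after its values were seen, was near 1 CPM, and lost the call without any of shCtrl 1, shCtrl 3 or shSATB1 1, 2 and 3 (adjusted p 0.0566 to 0.133), with DESeq2 (0.0753) and with the covariate (0.0791). With the covariate the TXNIP estimate was larger and less certain (log2 fold change 1.49, SE 0.572). MLX fell from 101.6 ± 5.43 to 88.6 ± 3.08 CPM (edgeR adjusted p = 0.0297). That call was lost with the covariate (adjusted p = 0.706) and without shCtrl 2, shCtrl 3 or shSATB1 1, 2 or 3 (adjusted p 0.0606 to 0.158).

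Subunits of the SIN3 and histone deacetylase corepressor, which the MXD proteins and MNT recruit, moved in both directions. Of 18 tested, 3 rose and 3 fell, or 16.7% each way, close to the background of 14.3% and 16.6%. BRMS1L rose from 8.27 ± 0.253 to 13.3 ± 0.930 CPM under all settings, and its paralog BRMS1 fell from 77.4 ± 7.14 to 59.2 ± 1.43 CPM. SAP30, an adaptor subunit, fell from 21.1 ± 2.69 to 15.96 ± 0.655 CPM, and ARID4B, a chromatin-binding subunit, rose from 113.5 ± 6.75 to 141.5 ± 9.81 CPM. The other calls were ARID4A (higher) and RBBP7 (lower), chosen after their values were seen. With the covariate BRMS1, SAP30, ARID4B, ARID4A and RBBP7 lost the call (edgeR adjusted p = 0.331, 0.806, 0.448, 0.0549 and 0.306). Without shCtrl replicate 1, 6 fell, while falls over all genes went from 2910 of 17520 to 3562 of 17999. The ARID4B call also ended with the length and GC correction (edgeR adjusted p = 0.0669). The scaffold gene SIN3A and the deacetylase gene HDAC1, chosen after their values were seen, had log2 fold changes of 0.03 and -0.062 and did not pass (edgeR adjusted p = 0.773 and 0.501), with signs that turned under some settings. With the length and GC correction SIN3A passed as lower (-0.16, edgeR adjusted p = 0.0253).

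MYC cofactors also split. Of 18 tested, 4 rose and 4 fell, or 22.2% each way, near the share of all genes tested (14.3% and 16.6%) and of those with at least 10 CPM (17.7% and 25.9%). The falls were RUVBL2, from 300.9 ± 28.5 to 197.6 ± 8.17 CPM, RUVBL1, from 93.4 ± 8.92 to 70.4 ± 2.42 CPM, WDR5 and KAT2A. RUVBL1 and RUVBL2 form the helicase ring of chromatin remodelling complexes, and RUVBL2 kept its call under all 16 other settings. The rises were the acetyltransferase genes CREBBP, from 102.3 ± 16.3 to 148.8 ± 1.33 CPM, and EP300, from 146.1 ± 36.5 to 207.2 ± 6.36 CPM, and BPTF and DNMT3A. WDR5, KAT2A, BPTF and DNMT3A were chosen after their values were seen. With the covariate 0 rose, CREBBP, RUVBL1, DNMT3A and KAT2A lost the call (edgeR adjusted p = 0.221, 0.245, 0.483 and 0.211), and EP300 and BPTF turned to log2 fold changes of -0.10 and -0.14. BPTF also lost the call without shCtrl 3, shSATB1 1 or shSATB1 3, and 7 cofactors rose without shCtrl replicate 1. Rises over all genes were 858 of 17520 with the covariate, 3218 of 17999 without shCtrl replicate 1 and 2500 of 17520 with neither.

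Genes that act on MYC protein turnover moved in both directions. Of 26 tested, 2 rose (FBXO28 and PPP2R5A, 7.69%) and 8 fell (30.8%). Of all genes tested 14.3% rose and 16.6% fell, and of those with at least 10 CPM, as all but 1 of the 26 have, 17.7% rose and 25.9% fell, so the falls are near that share. The median log2 fold change was -0.0060. USP7, a deubiquitinase, fell from 543.8 ± 5.03 to 378.7 ± 9.46 CPM and kept the call under all 16 other settings. SKP1, a subunit of SCF ubiquitin ligases, fell from 137.9 ± 23.4 to 111.0 ± 4.23 CPM, GSK3A, a kinase that marks MYC for degradation, from 54.6 ± 4.53 to 44.5 ± 1.84 CPM, and the ligase gene FBXO28 rose from 54.5 ± 0.553 to 67.0 ± 4.50 CPM. SKP1 lost its call without shSATB1 1, 2 or 3 (edgeR adjusted p = 0.0556, 0.102 and 0.113) and GSK3A without shSATB1 3 (0.0618). PPP2R5A, chosen after its values were seen, lost its call without shCtrl 3, shSATB1 1 or shSATB1 3 (edgeR adjusted p = 0.111, 0.0776 and 0.124), with no filter (0.0593) and with the covariate (0.223). Falls numbered 2 without shSATB1 replicate 1 or 3, 4 without shSATB1 replicate 2 and 3 without shCtrl replicate 3, and 4 with the covariate, with which SKP1 turned to 0.091 and GSK3A and FBXO28 lost the call (edgeR adjusted p = 0.631 and 0.0931). Rises numbered 1 without shCtrl replicate 3, shSATB1 replicate 1 or shSATB1 replicate 3 and 5 without shCtrl replicate 1. Over all genes, falls went from 2910 of 17520 to 1817 of 17968 without shSATB1 1 and 1852 of 17925 without shSATB1 3. They were 2225 of 17983 without shSATB1 2, 2071 of 18052 without shCtrl 3 and 1262 of 17520 with the covariate. Rises over all genes went from 2500 to 1662, 1670 and 1650 without shCtrl 3, shSATB1 1 and shSATB1 3, and to 3218 without shCtrl 1. FBXW7, the ligase subunit often mutated in T cell leukaemia, chosen after its values were seen, was at 50.7 ± 1.56 and 52.2 ± 3.27 CPM (edgeR adjusted p = 0.690).

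Factors known at MYC enhancers in T cell leukaemia included 4 rises and 3 falls among 16 tested. These are 25.0% and 18.8%, against 14.3% and 16.6% of all genes tested and 17.7% and 25.9% of those with at least 10 CPM. TAL1, a leukaemia oncogene, rose from 313.3 ± 7.78 to 493.1 ± 7.60 CPM, and RBPJ, the DNA-binding partner of Notch, from 108.8 ± 2.80 to 138.8 ± 7.60 CPM. GATA3 and LEF1 also rose, the latter not without shCtrl 3, shSATB1 1 or shSATB1 3. SMARCA4, the ATPase of SWI/SNF remodellers, fell from 592.0 ± 19.6 to 453.3 ± 15.6 CPM, ETS1 from 832.9 ± 34.9 to 672.7 ± 18.6 CPM, and MYB was the third fall. GATA3, LEF1 and MYB were chosen after their values were seen, as was NOTCH1, at 172.3 ± 25.0 and 146.0 ± 4.15 CPM (log2 fold change -0.24, edgeR adjusted p = 0.0512). NOTCH1 passed as lower under 7 of the 16 other settings. These were the covariate (-0.56, edgeR adjusted p = 1.89e-06), the length and GC correction (-0.37, adjusted p = 0.000307), leaving out shCtrl replicate 2 (-0.34, adjusted p = 2.29e-05), no filter (adjusted p = 0.00314), DESeq2 (0.0267), the replicate block (0.0334) and DESeq2 size factors (0.0477). With the length and GC correction 7 of these factors fell, while over all genes 3616 of 17511 fell, against 2910 of 17520 without it.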

How the data were processed

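For each of the 6 Jurkat libraries the authors deposited raw counts by Ensembl identifier. Trim Galore, STAR, HTSeq and hg38 are named without versions, per the submitters' processing notes. The sources used here give neither annotation release nor strand setting, so overlapping and antisense genes are uncertain. The 5 closing lines that name no gene were left out of every total and test; reads outside all exons were 7.77% to 11.7%, ambiguous reads 8.99% to 10.1% and reads not placed once 4.22% to 4.53%. Groups and replicate numbers came from the sample titles. All 58735 identifiers were found in GENCODE 29, and 1 listed symbol (FAM60A, now SINHCAF) was matched through RefSeq synonyms.

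The test was edgeR 4.0.16 in R 4.3.3 (quasi-likelihood, shSATB1 minus shCtrl, no covariate) on TMM-normalized counts kept by filterByExpr at a minimum count of 10, with Benjamini-Hochberg adjustment over 17520 genes (threshold 0.05). CPM used TMM-adjusted library sizes. At this depth 3 reads are 0.104 to 0.113 CPM, which covers counting error only. The 16 other settings were upper quartile normalization, DESeq2 size factors, 1 CPM in 3 libraries, no filter, DESeq2 1.42.0, limma-voom (limma 3.58.1), a replicate block, each library left out, a null of a 1.2-fold change, a covariate (the no-exon share of reads), and a loess correction for exon length and GC. That share differs between the groups, so the covariate can absorb part of a group difference. RHOB and TXNIP lost the call there with larger estimates and wider SEs. The fit was also run on simulated counts, as a check of the code only. Far fewer genes were changed there than were called in these data.

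Members and lists were chosen with earlier results of these data known. Named genes were the members, SATB1, up to 4 called genes per list (largest change, at least 2 CPM, groups not overlapping), genes near MYC or overlapping a member, and the 3 genes most like MYC. Others are said to be chosen after their values were seen. Figures were drawn with matplotlib 3.10.9 (Python 3.11.15), and exact tests used scipy 1.17.1.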

Additional observations from a re-analysis of the deposited data

How the results depend on the processing

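MYC and SATB1 kept direction and call under all 16 other settings, MXD4 under 15 and MXI1 under 14. The cause of the changes below was not tested. A stricter null makes fewer calls by design, while leaving out 1 library gave fewer calls or more. Against the 1.2-fold null 758 genes rose and 698 fell. There 0 members rose and 1 fell; 1 and 0 of the MLX arm, 1 and 0 of the corepressor, 1 and 1 of the cofactors, 0 and 1 of the turnover genes, 17 activated targets fell, 1 and 1 of the repressed targets, and 1 and 0 of the enhancer factors. With the covariate 858 genes rose and 1262 fell. There 1 rose and 0 fell of the MLX arm, 1 and 0 of the corepressor, 0 cofactors rose, 1 turnover gene rose and 4 fell, 20 activated targets fell and 0 repressed targets fell. The covariate also turned the sign of MAX (0.058), MXD1 (-0.29), MXD3 (0.082), MNT (-0.16), MGA (-0.29), EP300 (-0.10), SKP1 (0.091), PVT1 (0.0086), LINC00824 (0.18), FNTB (0.23), BPTF (-0.14), FOXO3 (-0.012), HDAC1 (0.025), HSPE1 (0.080), SIN3A (-0.14) and UTP20 (-0.20, all log2).

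With the length and GC correction 2291 of 17511 genes rose and 3616 fell. There 2 members rose, 2 of the MLX arm, 7 corepressor genes and 7 enhancer factors fell, and MXD1 (-0.044), MNT (-0.074), MYCNOS (0.066), FBXW7 (-0.13) and SIN3A (-0.16) turned. Without a filter 2 members and 1 turnover gene rose and MXD1 turned (-0.0027). With upper quartile normalization or a 1 CPM minimum 5 turnover genes fell and MYCNOS turned (0.0051 and 0.013), and with DESeq2 1 gene of the MLX arm rose. With the longest transcript the MYC share was 75.4% in shCtrl and 63.7% in shSATB1 and MYC per MAX 5.39 and 3.72; with exon bases of no other gene, added after seeing the data, the share was 76.4% and 65.2%.

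Leaving out 1 library at a time gave 1650 to 3218 rising and 1817 to 3562 falling genes, the most of both without shCtrl replicate 1. Among members 1 to 2 rose and 2 to 4 fell. The MLX arm had 1 to 2 rises and 0 to 1 falls, the corepressor 3 to 6 falls, cofactors 3 to 7 rises, turnover genes 1 to 5 rises and 2 to 9 falls, activated targets 0 to 1 rises and 37 to 50 falls, and repressed targets 2 to 7 rises. Signs turned in MYCL (-0.069 to 0.18), MXD1 (-0.041 to 0.11), MNT (-0.056 to 0.058), MYCNOS (-0.089 to 0.10), AL139022.1 (-0.35 to 0.20), SIN3A (-0.0074 to 0.084) and TFRC (-0.045 to 0.0074).

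With the replicate number as a block 2783 genes rose and 3120 fell, and 2 members rose (MXD4 and MGA) and 3 fell (MYC, MXI1 and MXD3). Deviations of same-numbered libraries from their group means correlated at 0.080, 0.071 and 0.0032. Libraries shCtrl 1 and 2 correlated best with their own number and shCtrl 3 did not. With 3 libraries a group these values cannot decide whether the replicates were paired, and the labels name no pairing.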
